A study of Arabidopsis thaliana with 6 samples.

Results

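The chloroplast genes *psbD*, *psbC* and *psbZ* lie one after the other on the same strand and are transcribed together, and they were followed here as 3 of the 73 chloroplast mRNAs measured. They were chosen by name. Their RNA was compared between the input and the CP31A pellet of a DO-RIP-Seq experiment (digestion-optimized RNA co-immunoprecipitation and sequencing). CP31A is a chloroplast ribonucleoprotein, an RNA-binding protein with RNA recognition motifs that is encoded in the nucleus and imported into the organelle. The comparison asks how strongly the RNAs of this operon are recovered with CP31A, relative to the extract they came from and relative to other chloroplast RNAs.

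Photosystem II splits water and passes electrons to plastoquinone. *psbD* encodes D2, which with D1 (encoded by *psbA*) forms the reaction centre. *psbC* encodes CP43, one of the pair of inner antenna proteins that pass excitation to the reaction centre, the other being CP47 (encoded by *psbB*). *psbZ* encodes a small membrane-spanning subunit that in tobacco is known for a role in the contact between photosystem II and its outer antenna. The operon is a textbook case of chloroplast transcription under light control, since *psbD* has a blue-light-responsive promoter that is read with the sigma factor SIG5. It is transcribed into overlapping RNAs that carry several reading frames and are then processed.

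Both groups came from wild-type *Arabidopsis thaliana* (Columbia-0) seedlings, 14 days old and grown at 21 °C with 16 h of light and 8 h of dark. Their tissue was cross-linked with formaldehyde, extracted and treated with a nuclease. The pellet libraries (n = 3) hold the fragments precipitated with an antibody against CP31A. The input libraries (n = 3) are unselected samples of that extract with its beads, and each is paired with the pellet of the same replicate number. No mutant and no non-specific immunoglobulin is part of the comparison, so in these values fragments that bind to beads and those that bind to CP31A cannot be told apart. The study did sequence a control precipitation with non-specific immunoglobulins. It reports no significant enrichment there, with a single exception. The table holds chloroplast protein-coding genes alone, so the tissue label was not checked against markers. In the levels of whole seedlings, fewer cells of a type cannot be told from less RNA per cell. That limit concerns levels and not pellet over input, since both libraries of a pair came from the same mix.

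In the chloroplast genome (TAIR10.1, RefSeq, 154478 bp) all 3 genes are on the plus strand and have no intron. *psbD* spans 32711 to 33772 (1062 nt), *psbC* 33720 to 35141 (1422 nt) and *psbZ* 35751 to 35939 (189 nt). The reading frames of *psbD* and *psbC* overlap by 53 nt. Between *psbC* and *psbZ* lie 609 nt, which hold *trnS* on the minus strand at 35312 to 35403. The nearest protein-coding genes outside the operon are *psbM* (a small photosystem II subunit, 3899 nt away) and *rps14* (a protein of the small ribosomal subunit, 998 nt away), both on the minus strand. The overlap is printed because reads in it could belong to either gene. It runs over chloroplast:33720-33772, and capitals mark the annotated ATG of *psbC* and a GTG in the same frame 36 nt downstream.

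psbD and psbC overlap: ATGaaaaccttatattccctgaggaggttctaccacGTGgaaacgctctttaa

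Reads had been counted over each gene with 100 nt on either side. The TPM values (reads divided by window length and scaled to a fixed sum per library) turned into whole reads for 65 of 66 entries with the annotated window, *psbC* being the exception. For *psbC* they did so not with the annotated window of 1622 nt but with one of 1586 nt, the length that a start at the GTG gives. With that start, the windows of *psbD* (1262 nt) and *psbC* share 217 nt, or 17.2% of the first and 13.7% of the second. How reads in this stretch were assigned is not given in the sources used here. The *psbZ* window (389 nt) begins 409 nt after the end of that of *psbC* and shares nothing with it. The map of the operon shows these windows.

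**Figure D1:**
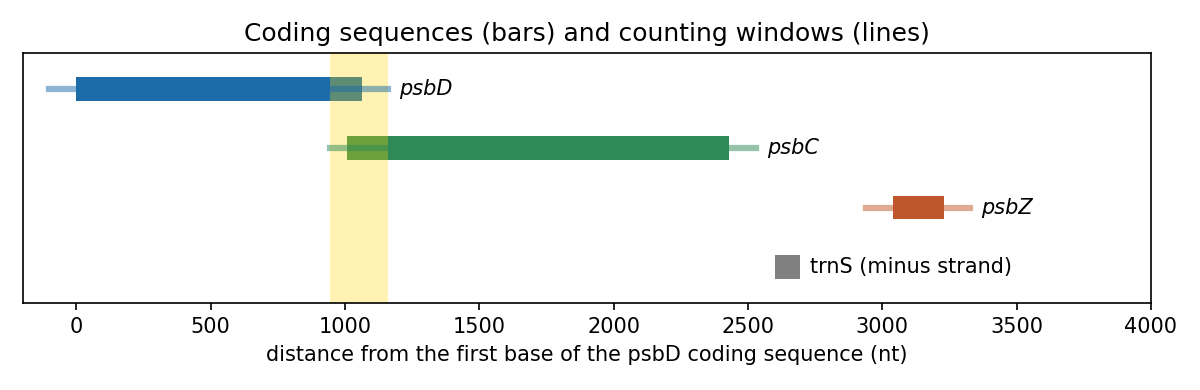
Map of the operon, to scale, with the distance from the first base of the *psbD* reading frame in nucleotides on the axis. Bars are annotated reading frames, lines are counting windows (the window of *psbC* starts 100 nt before the GTG), and the yellow stretch of 217 nt belongs to the windows of both *psbD* and *psbC*.

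The smallest of the 3 genes is printed whole, as it had the fewest reads of the 3 in every library. It runs over chloroplast:35751-35939 on the plus strand (63 codons with the stop codon), and capitals mark its start and stop codons.

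psbZ: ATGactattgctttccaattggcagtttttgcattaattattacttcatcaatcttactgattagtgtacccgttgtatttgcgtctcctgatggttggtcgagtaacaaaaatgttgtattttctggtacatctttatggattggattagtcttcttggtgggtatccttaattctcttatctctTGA

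The inputs held 24224, 67822 and 73526 reads over all RNAs in replicates 1, 2 and 3, and the pellets 251570, 336446 and 392286. Input 1, the shallowest, also stood apart from the rest. Its log2 TPM correlated with the other inputs at r = 0.919 and 0.935 across the RNAs, against 0.994 between inputs 2 and 3 and 0.995 to 0.999 among pellets. In it 32 RNAs lay more than 0.5 (log2) from the mean of the inputs, against 13 in input 2, 6 in input 3 and 0 in each pellet. The main results below are therefore given for each pair and also without replicate 1.

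In the pellets the 3 RNAs were ordered *psbC*, *psbD*, *psbZ*, with no overlap and a spread of a few percent. *psbC* had 34364, 32756 and 33607 TPM in pellets 1, 2 and 3 (33576 ± 804, SD, n = 3). *psbD* had 23711, 24237 and 23934 TPM (23961 ± 264). *psbZ* had 12292, 11691 and 12475 TPM (12153 ± 410). All *psbC* values lay above all *psbD* values, and those above all *psbZ* values. By mean level per length in the pellets, *psbC* was in place 5, *psbD* in place 6 and *psbZ* in place 18 of the 73 RNAs.

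The inputs varied far more, and input 1 set most of that spread. *psbD* had 51606, 22192 and 27878 TPM in inputs 1, 2 and 3 (33892 ± 15602), so that its highest value was 2.33 times its lowest. The inputs of *psbD* thus spread to either side of the narrow range of its pellets. *psbC* had 41970, 30156 and 35153 TPM (35760 ± 5931), again with its highest value in input 1, and its pellets lay inside this range. *psbZ* went the other way, with 6529, 9805 and 11347 TPM (9227 ± 2460), its lowest value in input 1, and all its inputs lay below all its pellets. Over all 73 RNAs the median log2 of pellet over input was above 0 in each pair too. In inputs 2 and 3 the order was that of the pellets, while in input 1 *psbD* lay above *psbC*. The mean input levels of *psbC* and *psbD* differed by less than their spread, and both lay above *psbZ* in each library. Together the 3 RNAs made up 10.2%, 6.30% and 7.56% of the TPM of the inputs, while their share of the pellets was 7.22%, 7.05% and 7.20%.

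**Figure D2:**
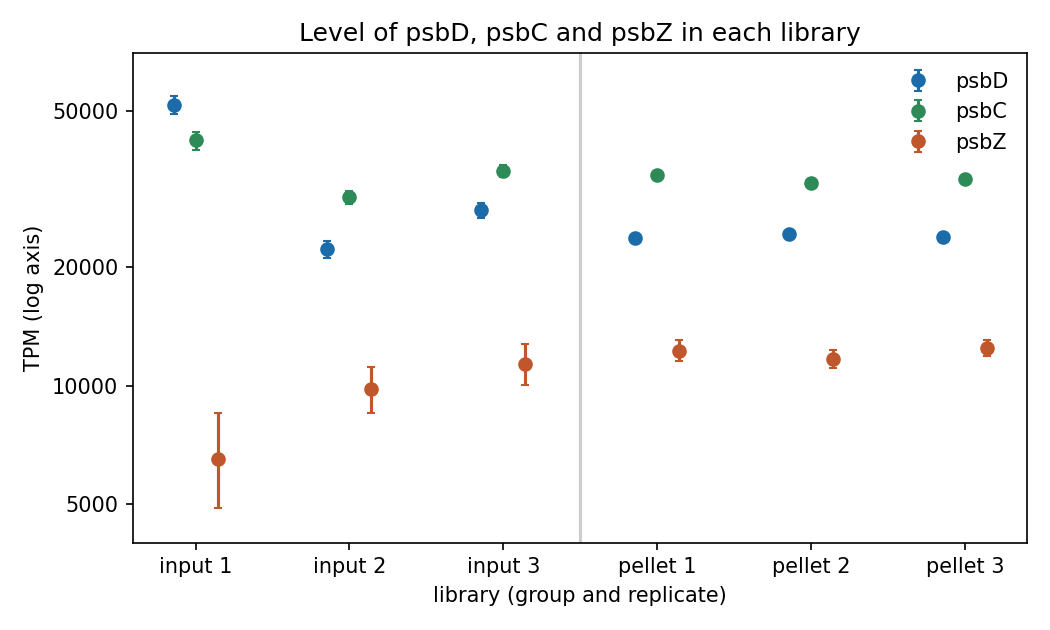
TPM (log axis) of *psbD*, *psbC* and *psbZ* in each of the 3 input and 3 pellet libraries, with exact Poisson 95% intervals of the read count as bars. The pellets of each gene nearly coincide, while input 1 holds the highest *psbD* (51606) and *psbC* (41970) and the lowest *psbZ* (6529).

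The read counts behind these levels were large for *psbD* and *psbC*. Inputs 1, 2 and 3 gave *psbD* 1359, 1608 and 2184 reads, and the pellets gave it 6740, 9362 and 10811. For *psbC* the input reads were 1389, 2746 and 3461, and the pellet reads 12276, 15901 and 19078. For *psbZ* the 53, 219 and 274 input reads, against 1077, 1392 and 1737 in the pellets, made input 1 the least certain value of the operon. Its exact Poisson 95% interval ran from 39.7 to 69.3 reads, or 4891 to 8541 TPM, and stayed below the values of inputs 2 and 3. For *psbD* the interval in input 1 ran from 48899 to 54425 TPM and in input 2 from 21121 to 23304 TPM. These intervals cover counting error alone.

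Counting error fell well short of the spread between inputs for all 3 RNAs, and came close to the spread between pellets for *psbD* and *psbZ*. The SD of log2 TPM over the inputs was 0.63 for *psbD*, 0.24 for *psbC* and 0.41 for *psbZ*, where counting alone would give 0.035, 0.031 and 0.14. The median SD of the 73 RNAs in the inputs was 0.41, so that *psbC* was steadier than most and *psbD* less steady. Over the pellets the SDs were 0.016, 0.035 and 0.049, against 0.0155, 0.012 and 0.039 from counting and a median of 0.095 over all RNAs. From the steadiest up, *psbD* was in place 54 of 73 by its inputs, yet in place 2 by its pellets.

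Input 1 deviated from inputs 2 and 3 by a different amount for each gene of the operon. Against the mean of inputs 2 and 3, its log2 level was 1.05 higher for *psbD*, 0.37 higher for *psbC* and differed by -0.69 for *psbZ*, which were places 10, 24 and 58 of 73 from the highest. The neighbours outside the operon, *psbM* and *rps14*, were at -0.64 and 0.16. The photosystem I genes *psaA* and *psaB*, which encode its paired reaction-centre proteins and lie on another shared transcript, were at 0.29 and -0.45. Across 66 RNAs with an annotated window the deviation of input 1 correlated with the GC content of the window at r = 0.38 and with log2 window length at r = 0.016. *psbC* (42.8% GC) and *psbD* (41.8%) were in places 1 and 4 for GC and *psbZ* (32.1%) in place 44, around a median of 33.6%. The part of GC content or depth in these values was not tested.

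Ratios between genes within a library do not depend on how libraries are scaled. The level of *psbC* over that of *psbD* was 0.813, 1.36 and 1.26 in the 3 inputs (replicates 1, 2 and 3), while the pellets had 1.45, 1.35 and 1.40. Outside input 1 the ratio thus kept to a range of 1.26 to 1.45. *psbZ* over *psbC* was 0.156, 0.325 and 0.323 among inputs, while pellets had 0.358, 0.357 and 0.371, so that in replicates 2 and 3 the pellet ratio was only slightly above that of the input. *psbZ* over *psbD* was 0.127, 0.442 and 0.407 among inputs, while pellets had 0.518, 0.482 and 0.521. The highest of its input ratios was 3.49 times the lowest, against 1.08 times in the pellets. The plot of ratios shows input 1 apart from the other 5 libraries.

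**Figure D3:**
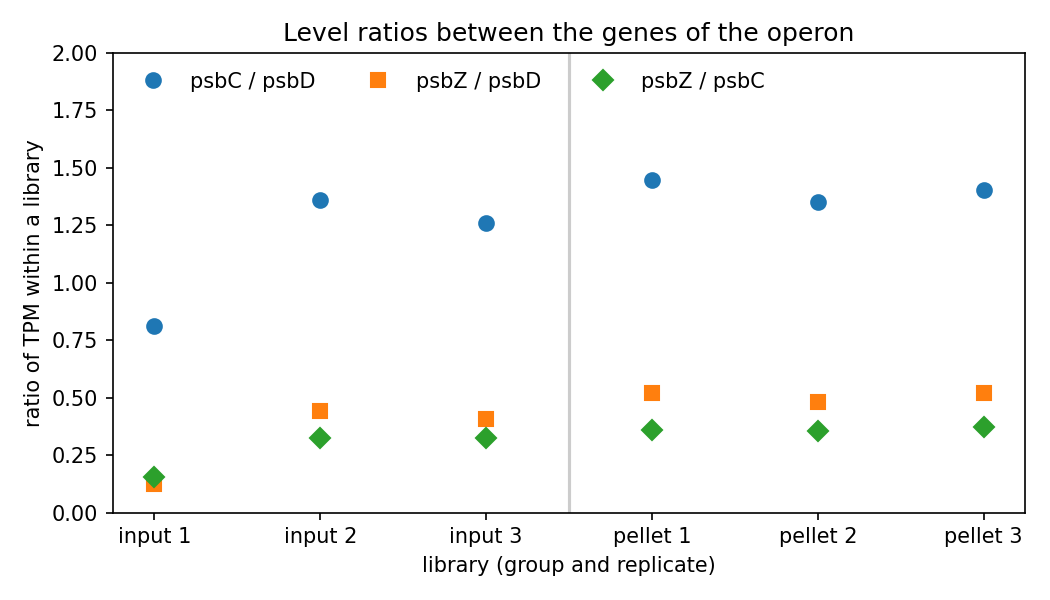
Ratio of TPM between genes of the operon in each of the 3 input and 3 pellet libraries (linear axis from 0). In the pellets each ratio varies little (*psbC* over *psbD* 1.35 to 1.45), and input 1 lies lowest for all 3 ratios.

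Enrichment is the log2 of pellet TPM over input TPM of the same replicate. None of the 3 RNAs passed the test in either direction (limma over all RNAs, two-sided, blocked by replicate, with a Benjamini-Hochberg adjusted p under 0.05), whereas 49.3% of the 73 RNAs were called higher in the pellet and 1.37% lower, together 50.7%. The median enrichment of all 73 RNAs was 0.71, and the 3 members lay below it.

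*psbD* had a log2 enrichment of -1.12, 0.13 and -0.22 in pairs 1, 2 and 3. The mean was -0.40 ± 0.64 (SD, n = 3; limma 95% interval -1.05 to 0.24; adjusted p = 0.252), a ratio of 0.755. The pairs differed in sign, and the exact sign-flip test gave p = 0.5, with 0.25 the smallest that 3 pairs allow. Of the 73 RNAs, *psbD* was in place 69 from the most enriched, and in places 69, 67 and 69 in the single pairs.

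*psbC* had -0.29, 0.12 and -0.06, with a mean of -0.08 ± 0.20 (95% interval -0.59 to 0.43; adjusted p = 0.802; exact sign-flip p = 0.75). Its RNA was thus recovered at 0.947 times its input level, in place 63 of 73. Both *psbC* and *psbD* were above 0 in pair 2 and below 0 in pairs 1 and 3. Their counting windows share 217 nt, so their values may not be independent.

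*psbZ* had 0.91, 0.25 and 0.14, with a mean of 0.43 ± 0.42 (95% interval -0.13 to 1.00; adjusted p = 0.168; exact sign-flip p = 0.25), a ratio of 1.35. It was above 0 in 3 of 3 pairs. The median of all 73 RNAs was also above 0 in each pair (0.58, 0.73 and 0.75), and *psbZ* lay above it only in pair 1. The highest value of *psbZ* came from that pair, with 53 input reads and a counting SE of 0.20. *psbZ* was in place 46 of 73 over all pairs and in place 62 without replicate 1, where *psbC* and *psbD* were in places 68 and 69.

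Without replicate 1 the mean enrichment was -0.046 for *psbD*, 0.027 for *psbC*, which thus changed sign, and 0.20 for *psbZ*, with adjusted p of 0.756, 0.843 and 0.175 by limma. TPM values sum to a fixed total, so the zero of this scale depends on the other RNAs. With the median RNA of each library set to the same level, *psbD* (-1.24, adjusted p = 0.0264) and *psbC* (-0.91, adjusted p = 0.0327) passed as lower in the pellet and *psbZ* changed sign (-0.40, adjusted p = 0.238). Rescaled instead to the sum of the RNAs other than *psbA*, *rbcL* and *psbC*, *psbD* and *psbC* did not pass (adjusted p = 0.0813 and 0.109 by limma). Places in the order of the RNAs are the same on each of these scales.

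**Figure D4:**
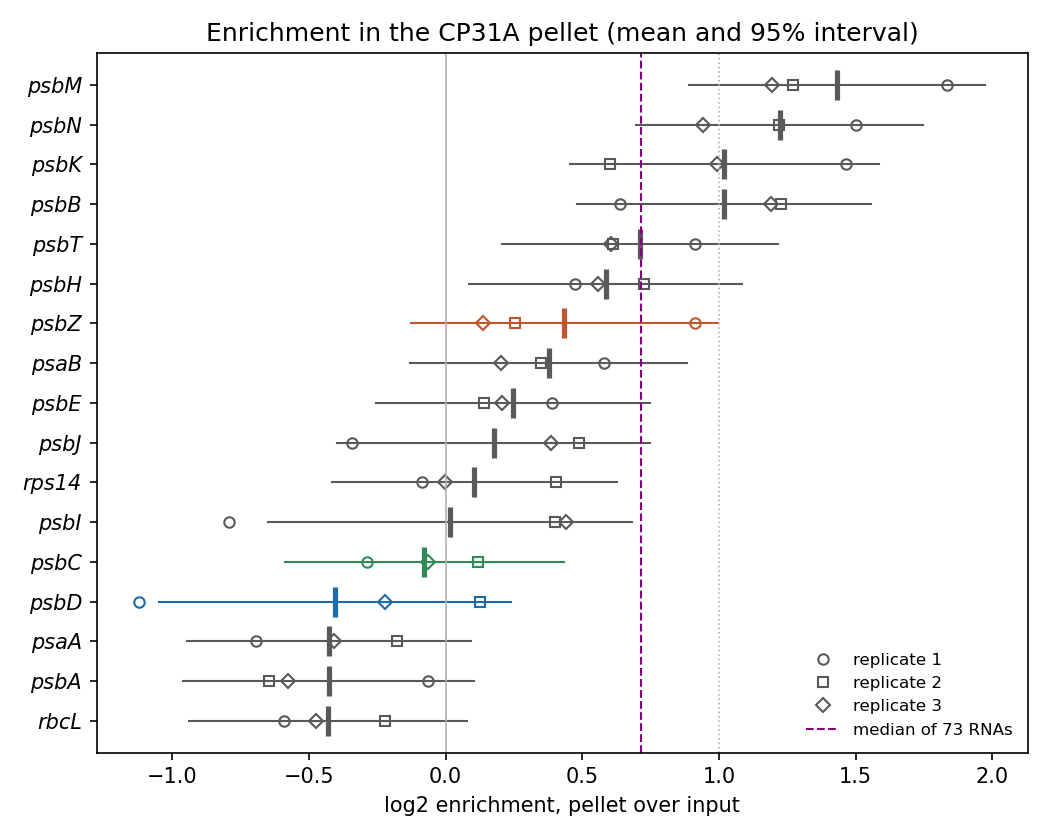
Log2 enrichment of pellet over input for all 13 photosystem II RNAs measured and *psaA*, *psaB*, *rbcL* and *rps14*, ordered by mean. Open symbols are the 3 replicate pairs, the upright tick is the mean, the horizontal line its limma 95% interval, the dashed line the median of 73 RNAs (0.71), the solid upright line 0 and the dotted line a log2 enrichment of 1; *psbD* (-0.40) and *psbC* (-0.08) lie in the lower part of these RNAs, *psbZ* (0.43) above the middle, and all 3 left of the dashed line.

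Within the operon the mean enrichment went up from *psbD* to *psbC* to *psbZ*, but no difference passed the test. *psbC* minus *psbD* was 0.83, -0.01 and 0.16 in the pairs (mean 0.33, 95% interval -0.45 to 1.10, adjusted p = 0.365 by limma over 72 RNAs). *psbZ* minus *psbC* was 1.20, 0.13 and 0.20 (mean 0.51, interval -0.24 to 1.26, adjusted p = 0.179). *psbZ* minus *psbD* was 2.03, 0.13 and 0.36 (mean 0.84, interval -0.34 to 2.02, adjusted p = 0.168). The exact sign-flip p of the 3 differences was 0.5, 0.25 and 0.25. Pair 1 gave most of each mean: without it they were 0.07, 0.17 and 0.24. The intervals are wide enough that the data do not show the 3 RNAs to be recovered alike.

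Among the other photosystem II RNAs, 5 of 10 were higher in the pellet, a share close to the 49.3% of all 73 RNAs. Of the 13 photosystem II RNAs measured (all names starting with *psb*), the 3 of the operon included, 8 thus passed in neither direction, and the median enrichment was 0.43. The 5 were *psbB* (1.02, adjusted p = 0.0073), *psbK* (1.02, adjusted p = 0.0076), *psbN* (1.22, adjusted p = 0.0036), *psbM* (1.43, adjusted p = 0.0026) and *psbT* (0.71, adjusted p = 0.0240). *psbK*, *psbM* and *psbT* encode small subunits, and *psbN* a factor for photosystem II assembly in tobacco. With a log2 enrichment of at least 1 as a second condition, 4 of these were called, against 34.2% of all RNAs. *psbH*, *psbI* and *psbJ*, for other small subunits, and *psbE*, for a subunit of cytochrome b559, had 0.59, 0.02, 0.18 and 0.25 and did not pass. With the median RNA set to the same level, none of the 13 passed as higher and 3 passed as lower, where 4 and 9 of all 73 RNAs did. Without replicate 1, 8 of the 13 passed as higher and 1 as lower, where 58 and 4 of all 73 RNAs did. That fit gave every RNA the same SE.

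Set against *psbC* itself, within each library, the difference to an RNA no longer depends on scaling. By limma, 55.6% of the 72 other RNAs were enriched above *psbC*, and 6 of the other 10 photosystem II RNAs were among them: *psbH* by 0.66 (adjusted p = 0.0305), *psbT* by 0.79 (0.0351), *psbB* by 1.10 (0.0145), *psbK* by 1.10 (0.0361), *psbN* by 1.30 (0.0160) and *psbM* by 1.51 (0.0160). Against *psbD*, 43.1% of the 72 were above, and 3 photosystem II RNAs were: *psbB* by 1.42 (adjusted p = 0.0353), *psbN* by 1.63 (0.0411) and *psbM* by 1.84 (0.0387). All these tests share the error of their reference. Without replicate 2 none of the 72 passed above *psbC* (34 had an unadjusted p under 0.05), while 57 did without replicate 1 and 24 without replicate 3. The fits without replicates 1 and 3 gave every RNA the same SE. The fit without replicate 2 did not, so these counts cannot be compared directly. Against *psbD* the counts were 56, 36 and 17 without replicates 1, 2 and 3, each from a fit with the same SE for every RNA. With all replicates the count was 31. At a minimum mean of 1000 TPM, 9 of 57 were above *psbD*, and of the 3 photosystem II RNAs just named 1 was still among them (*psbB*).

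The paired antenna proteins CP43 and CP47 form a contrast that was singled out after its values were seen. *psbB* had 19924, 15027 and 17797 TPM among inputs, while its pellets had 30965, 35194 and 40631 TPM, with no overlap, where *psbC* pellets lay inside the range of its inputs. In the inputs *psbB* was below *psbC* in each library, and in pellets 2 and 3 it was above. The difference in enrichment was 0.92, 1.11 and 1.26 in the pairs and was above 0 in 3 of 3. Such a difference is not particular to *psbB*, since 55.6% of the 72 other RNAs were enriched above *psbC* by limma. *psbN* (1.30) and *psbM* (1.51) lay further above *psbC* than *psbB* (1.10). The *psbB* difference kept its size when single replicates were left out (1.02 to 1.18). Its adjusted p by limma was 0.0687 without replicate 2 and 0.0801 without replicate 3.

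Among abundant mRNAs of photosynthesis, enrichments ranged from values close to that of *psbD* to well above it. *psbA* (D1) had -0.43 (adjusted p = 0.156), *psaA* -0.43 (0.150) and *rbcL*, for the large subunit of Rubisco, -0.43 (0.139), and none passed. *psbJ* and *psbI*, with mean input levels of 34698 and 24358 TPM, had 0.18 and 0.02, and *psbB*, with 17583 TPM, had 1.02. Of the 6 chlorophyll-binding core subunits of the photosystems (*psbA*, *psbB*, *psbC*, *psbD*, *psaA*, *psaB*), 1 was higher (*psbB*) and the median was -0.24. Of 9 small photosystem II subunits and factors measured, *psbZ* among them, 4 were higher, with a median of 0.59, and *psbZ* at 0.43 was below that. Of the 5 photosystem I RNAs 1 was higher (*psaI*), with a median of 0.38. For all 73 RNAs, 36 were higher and the median was 0.71. Outside the operon, *psbM* was higher (1.43) and *rps14* was at 0.11 (adjusted p = 0.737).

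Level and GC content both move with enrichment across RNAs, which are not independent replicates. Mean enrichment correlated with the mean log2 level in inputs 2 and 3 at r = -0.41 and with the GC content of the window at r = -0.40. *psbD* and *psbC* are near the top on both measures, in places 5 and 3 by mean input level. Enrichment and input level share the input libraries. The part of level and GC content in the values of the operon was not tested.

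**Figure D5:**
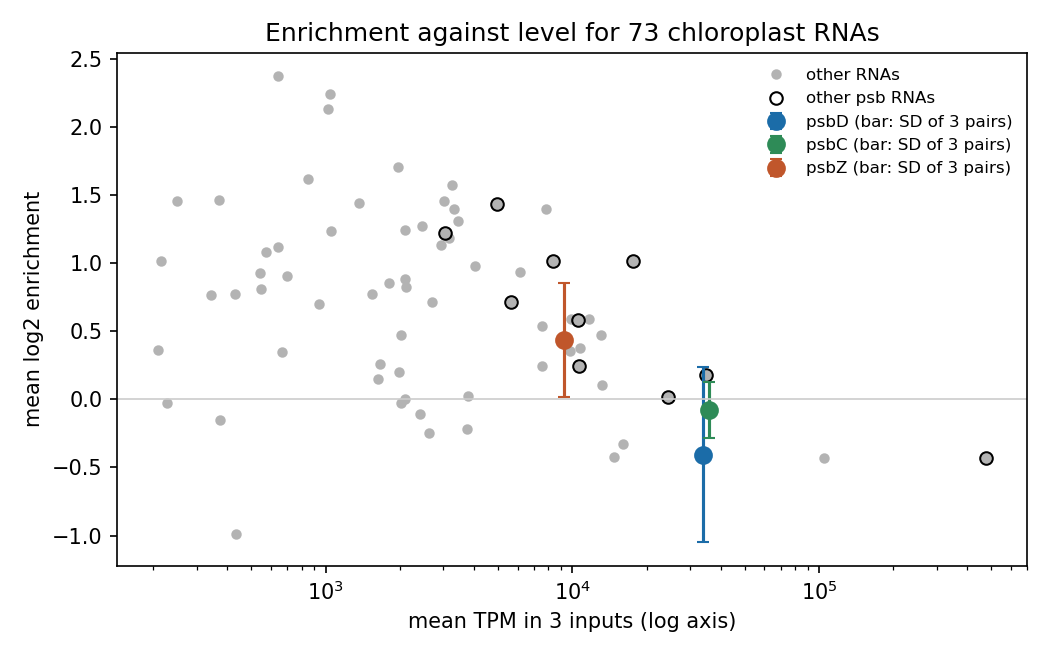
Mean log2 enrichment against mean TPM in the 3 inputs (log axis) for 73 chloroplast RNAs, with the SD of 3 pairs as bars on *psbD*, *psbC* and *psbZ*. *psbC* and *psbD* lie among the most abundant RNAs with enrichments of -0.08 and -0.40, and *psbZ* (0.43) at an intermediate level; both axes use the input libraries.

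The pattern over the 6 libraries was much the same for *psbD* and *psbC* but not for *psbZ*. Between *psbZ* and *psbC* this contrast did not hold without input 1. By Pearson's r of log2 TPM, the RNAs most like *psbD* were *atpH* (0.962), *atpB* (0.950) and *rps18* (0.945), with *psbC* in place 4 (0.941). Most like *psbC* were *atpB* (0.955), *psbD* (0.941) and *rpl2* (0.926). Most like *psbZ* were *rpoB* (0.994), *ndhE* (0.966) and *psaB* (0.964), whereas *psbZ* and *psbD* had r = -0.885. The points share libraries and 2 groups, and the windows of *psbD* and *psbC* overlap. Input 1 carries much of these correlations. Without it (5 libraries) r was 0.787 for *psbD* with *psbC*, 0.303 for *psbZ* with *psbD* and 0.774 for *psbZ* with *psbC*, which had been -0.690 with it. The RNAs most like *psbD* were then at 0.228 (*atpH*), 0.492 (*atpB*) and 0.496 (*rps18*), and those most like *psbC* at 0.795 (*atpB*) and 0.632 (*rpl2*). Those most like *psbZ* were at 0.948 (*rpoB*), 0.869 (*ndhE*) and 0.900 (*psaB*).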

How the data were processed

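As stated in the methods and in the processing notes of the submitters, reads were trimmed by the authors (Trim Galore 0.6.4), cleared of duplicates by molecular identifiers (UMI-tools 0.5.4), aligned to TAIR10 (STAR 2.5.3) and counted on the coding strand per chloroplast gene with featureCounts, introns and 100 nt on either side included. Genes with few reads in any library had been left out. The authors deposited TPM for 77 entries, and each library summed to between 996097 and 998550. Deposited log2 values, ratios and p-values of the same table were not used. Copies in the inverted repeat (4 genes) were merged, which left 73 RNAs.

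Reads were recovered from TPM and window length (tolerance 0.0001 reads). Log2 TPM values, with no pseudocount, were fitted over all RNAs in limma 3.58.1 (R 4.3.3) with the replicate number as a block (prior degrees of freedom 6.50). The fits relative to *psbC* or *psbD* first subtracted the log2 TPM of that gene in the same library. The other steps used Python 3.11.15. The script was tested on simulated data. The pairing follows the methods, since each input came from the mix of its pellet. Deviations of the 2 libraries of a pair correlated at 0.17, 0.30 and -0.03. For an input and a pellet of different pairs the values ran from -0.27 to 0.19. The labels do not say that samples of a group were grown apart, though the study calls them biological replicates. Duplicate libraries were checked for by a chi-square test (12.5 to 47.1 per degree of freedom within groups) and none was found.

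Named were the 3 members, their flanking protein-coding genes, all other *psb* genes, *psaA*, *psaB* and *rbcL*, and the 3 RNAs most correlated with each member. The members and lists were chosen with earlier results of these data known. *psbF* and *psbL* were not analysed here. Alternatives were the scaling, pseudocount, filter, block, window length and each replicate left out.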

Additional observations from a re-analysis of the deposited data

How the results depend on the processing

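With the median RNA of each library set to the same level, the enrichment was -1.24 for *psbD*, -0.91 for *psbC* and -0.40 for *psbZ*, and 13 RNAs passed in place of 37. Rescaled without *psbA*, *rbcL* and *psbC*, the enrichment was -0.89 for *psbD*, -0.56 for *psbC* and -0.049 for *psbZ*. None of these passed, while 8 RNAs did. These scalings moved the median of all RNAs from 0.71 to -0.12 and 0.23. The methods' one-sided paired test called 20 RNAs after Benjamini-Hochberg adjustment, which the methods do not state, and 42 without it. Leaving out single replicates gave -0.67 (without replicate 2) to -0.046 (without replicate 1) for *psbD*, -0.18 to 0.027 for *psbC*, 0.20 to 0.58 for *psbZ*, 21 to 62 RNAs passing (62 without replicate 1, 27 without replicate 2, 21 without replicate 3), 1.02 to 1.18 for *psbB* minus *psbC* and 1.26 to 1.58 for *psbB* minus *psbD* (adjusted p = 0.122 without replicate 3). In several of these fits every RNA got the same SE, so that their calls do not measure how well each RNA's own pairs agree. Without the replicate block 41 RNAs passed and the adjusted p was 0.294 for *psbD*, 0.757 for *psbC* and 0.148 for *psbZ*, so that no call of these 3 changed. The *psbB* comparisons and the level ratios with window lengths less the stretch shared by *psbD* and *psbC* were added after seeing the data. The mean input ratio of *psbC* over *psbD* was 1.14, and 1.10 with that stretch taken off the window lengths alone, its reads being left in. Of the 3 RNAs, *psbZ* had the largest counting error, with 53 reads in input 1. Counting alone would give its inputs an SD of 0.14 (log2 TPM), where 0.41 was seen.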
